A study of Homo sapiens with 12 samples.

Results

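Sense overlapping loops are circular RNAs (circRNAs) that the deposited table assigns to a class of that name, apart from its exonic and intronic classes. The files do not define the class; by its name, such a loop overlaps a known gene on the same strand. The 1077 loops described here are all rows of that class that lie off the mitochondrial chromosome and hold at least 1 read over the 12 libraries, of 9526 circRNAs with a read. They held 5144 of the 71526 back-splice junction reads (7.19%) and 11.3% of the loops. A further 647 rows of the class off the mitochondrial chromosome had no read in any library. The class was given by the table and not by the read counts, so their numbers and shares below were not fixed by the choice.

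The reads came from a pair of established glioblastoma cell lines of human origin, LN229 and T98G. Normoxic cells of each line were kept at 37 °C in 95% air and 5% CO2, and hypoxic cells at 37 °C in 1% O2 and 5% CO2. All 4 groups grew in DMEM with serum and antibiotics, held 3 libraries each, and gave total RNA from which ribosomal RNA was removed. Digestion of linear RNA is not named in the labels, and neither is the time spent in hypoxia. They also do not say whether the 3 libraries per group were grown as separate cultures, so every p-value measures the spread between these libraries, which may be technical. Each line is a culture without the other cell types of a tumour. As hosts of these loops, none of the genes listed as markers of glial and glioma, neuronal, endothelial, immune or fibroblast cells appeared, and exonic loops had 1 glial and 1 endothelial marker host, so the circRNA table gives no check of the lines by markers.

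A circRNA forms when the spliceosome joins the end of a downstream exon back to the start of an upstream exon, which leaves a closed loop without free ends. In sequencing it is recognised by reads that cross this back-splice junction, and such loops resist the exonucleases that degrade linear RNA. Most known circRNAs run between annotated exon borders of 1 gene, and many are far more stable than the linear transcript of their host.

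Back-splice sequences could be inferred from annotation for a minority of the class. Spans in the files (hg19) were compared with distances between annotated exon starts and exon ends of the same host gene in GENCODE release 29, by length only, since that annotation is of another build. Each line below gives the last 20 bases before the back-splice in lower case and the first 20 bases after it in capitals, 5′ to 3′, taken from GENCODE transcripts (GRCh38). ZNF609, MED13L (7173 nt) and MPP6 are shown because they hold the most reads among loops whose edges could be read in this way, and the other MED13L and the CCDC7 loops because they share an edge within their gene. MALAT1 is shown as the host with the most members. The CCDC7 loops were picked after their values were seen.
ZNF609, 874 nt: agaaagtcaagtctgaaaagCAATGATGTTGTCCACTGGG
MED13L, 7173 nt: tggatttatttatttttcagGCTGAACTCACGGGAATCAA
MED13L, 7273 nt: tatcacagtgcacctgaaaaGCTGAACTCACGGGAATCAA
MED13L, 885 nt: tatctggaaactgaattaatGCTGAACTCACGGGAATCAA
MPP6, 44998 nt: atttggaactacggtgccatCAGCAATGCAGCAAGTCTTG
CCDC7, 18747 nt: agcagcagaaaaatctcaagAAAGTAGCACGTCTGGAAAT
CCDC7, 41005 nt: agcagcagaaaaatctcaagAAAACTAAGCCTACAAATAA
MALAT1, 1291 nt: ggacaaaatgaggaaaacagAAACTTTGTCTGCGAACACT

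The 3 MED13L loops differ in the lower-case part and share the capitals, so they run from 1 annotated exon start to 3 different exon ends. MED13L encodes a subunit of the Mediator kinase module, and its loops lie on the minus strand of chromosome 12, at 116668338 to 116675510, 116668238 to 116675510 and 116674626 to 116675510 in the files. The CCDC7 loops do the reverse and share the lower-case part, with starts at 32854486 and 32832228 and a common end at 32873232 on the plus strand of chromosome 10. In the annotation these CCDC7 loops span 5 exons with 667 spliced bases and 7 exons with 808 spliced bases, while the table gives their whole genomic span as the predicted length. ZNF609, a zinc finger gene whose circRNA has been studied in muscle cells, gave the loop at 64791492 to 64792365 on the plus strand of chromosome 15. Its capitals and its lower-case part came from exon borders of different transcripts, as did those of the printed MED13L, MPP6 and MALAT1 loops. The loop of MPP6, which encodes a membrane-associated guanylate kinase, lies on the plus strand of chromosome 7 at 24663282 to 24708279. The MALAT1 loop, from a nuclear long non-coding RNA, lies at 65271200 to 65272490 on the plus strand of chromosome 11.

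Edges that can be read in this way were rare in the class. Of the 1015 members whose host is in GENCODE, 135 (13.3%) had a span equal to a distance between an exon start and an exon end of the host. The same held for 97.97% of 7684 exonic loops and 9.42% of 520 intronic loops. In 28 members (2.76%) both edges belonged to 1 annotated transcript, against 97.7% of exonic and 3.65% of intronic loops. The edges of the other 107 belonged to different transcripts of the host. The length match was checked by position where the host also had matched exonic loops. There the distance to these loops was the same in the files and in the annotation for 79 members and differed for 6. A further 8 members without such exonic loops kept their distance to other matched members, and 42 had no loop to compare with. Members listed in circBase or in a publication matched in 18.7% of cases and unlisted ones in 9.28%. Over the 12 libraries, 12.3% to 17.4% of a library's members matched, 97.0% to 98.4% of its exonic loops and 6.85% to 16.3% of its intronic loops.

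Of the 1077 members, 368 (34.2%) had an end in common with an exonic loop of the table, and 709 had none. The upstream end alone was shared by 212, the downstream end alone by 151, and both ends by 5. Intronic loops shared an end with an exonic loop in 11.4% of cases. Members that shared an end had a median span of 25093.5 nt and those that did not 11334 nt, while their mean reads were 4.93 and 4.70. Sharing was found in 44.2% of listed and 26.95% of unlisted members, and 278 members had an end in common with another member.

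A few members reached past their host. In 53 (5.22% of those with a host in GENCODE) the span was longer than the whole host gene, against 5 exonic loops (0.0651%) and 15 intronic loops (2.88%). Among them were all 5 loops of HLA-C, an MHC class I gene, at 84700 to 85123 nt for a gene of 3382 nt, and the HLA-DRB1 loop, at 61487 nt for a gene of 11080 nt. HLA-DRB1 encodes a beta chain of MHC class II. HLA genes have near-identical neighbours, so reads of these loops are uncertain, since the counting could split them between copies. In 33 members (3.06%) an exonic loop of another host lay wholly inside the span on the same strand, against 0.167% of exonic and 2.21% of intronic loops. Among loops over 20000 nt the shares were 5.35% of 467 members, 0.427% of 2342 exonic loops and 11.5% of 61 intronic loops. Both loops of DSN1, a kinetochore gene, that are described below held an exonic loop of SOGA1 inside their spans.

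The table predicted a length equal to the genomic span for all 1077 members, as for all intronic loops, while only 4.71% of exonic loops had such a length. The predicted length of a member is therefore its span, which can differ from a spliced length, as for the CCDC7 loops above, or equal it, as for 2 matched members within 1 annotated exon. Spans ran from 152 to 98093 nt, with a median of 16417 nt and quartiles at 5295 and 33744 nt. Exonic loops had a median span of 11007.5 nt and intronic loops of 1945 nt. Spans over 20000 nt were found for 467 members (43.4%), against 30.1% of exonic and 10.4% of intronic loops, and 148 members were over 50000 nt. At the other end, 82 were under 1000 nt. Unlisted members had a median span of 18336 nt and listed ones of 14363.5 nt. Among members with at least 10 reads, the shortest came from ZNF587, a zinc finger gene, with 395 nt, CNOT1, the scaffold of the deadenylase complex, with 559 nt, ZNF609, MED13L with 885 nt and MALAT1 with 1291 nt. The longest came from FYB with 67031 nt, FGF12 with 67336 nt, ARHGAP35 with 71188 nt, AKR1E2 with 77746 nt and HLA-C with 85094 nt.

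**Figure D1:**
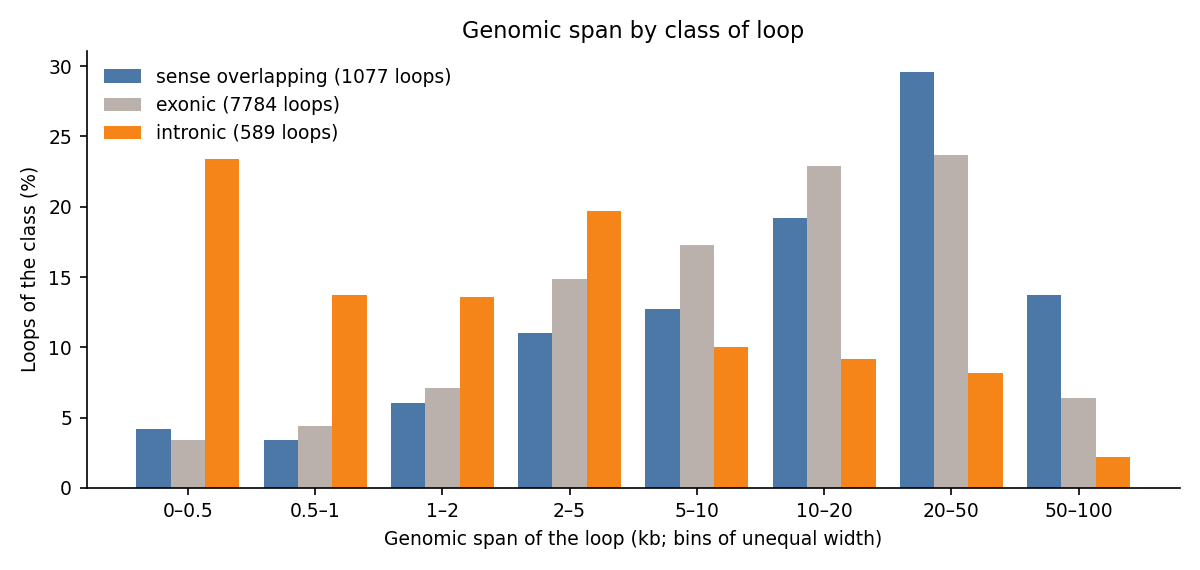
Percentage of loops of each class (y axis) by genomic span in kb (x axis, bins of unequal width), for 1077 sense overlapping, 7784 exonic and 589 intronic loops. Sense overlapping loops had their largest bin at 20 to 50 kb, with 29.6% of the class, where exonic loops had 23.7% and intronic loops 8.15%.

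The longer span held in every library taken by itself. The median span of the members found in a library was 16297 ± 1321 nt (SD over 12 libraries), that of exonic loops 10673 ± 447 nt and that of intronic loops 2315 ± 872 nt. Members were longer than either class in 12 of 12 libraries (exact sign-flip permutation test over libraries, two-sided, adjusted p = 0.000651 over 8 tests; 0.000488 is the smallest raw p that 12 libraries can give). The same loop can be counted in several libraries, so the test measures steadiness over libraries and not over genes.

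Most members are in no public list. Of the 1077, 627 (58.2%) carried no circBase or publication source, 437 were in circBase and 13 in a publication the table cites. Unlisted loops made up 1012 of the 7784 exonic and 74.7% of the intronic loops. The unlisted members held 40.0% of the members' reads, 3.29 reads per loop against 6.94 for members in circBase. In a single library 41.2 ± 3.12% of the members were unlisted (SD over 12 libraries), 6.26 ± 0.596% of exonic loops and 59.0 ± 4.21% of intronic loops. The share was above that of exonic loops and below that of intronic loops in 12 of 12 libraries (exact sign-flip permutation test, two-sided, adjusted p = 0.000651 for each).

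Reads per member were few and recurrence was low. A member held 4.78 reads on average over all libraries and 2 in the median, while exonic loops held 8.12 and 3, and intronic loops 3.51 and 2. A single read was all that 110 members had, 465 had 2 reads, and 94 had at least 10. These 94 held 44.4% of the members' reads, and the 10 with the most reads held 15.7%. Of the 94, 66 are listed and 28 are not. In 564 members (52.4%) all reads came from 1 library, against 31.8% of exonic and 62.5% of intronic loops. Most of these, 412, had exactly 2 reads there, and the most that such a member reached was 6, for a loop of BIRC2, an inhibitor of apoptosis gene, in LN229 hypoxia replicate 3. Reads came from 1 library for 71.1% of unlisted and 26.2% of listed members.

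**Figure D2:**
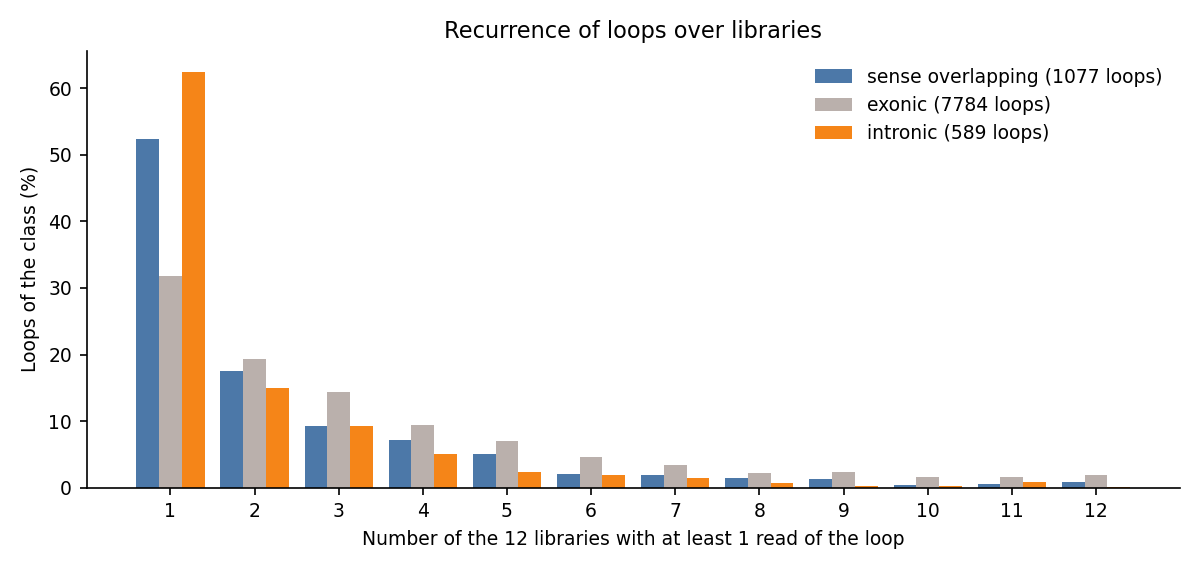
Percentage of loops of each class (y axis) by the number of the 12 libraries in which they had at least 1 read (x axis). Of sense overlapping loops 52.4% were found in 1 library and 0.836% in all 12; the values for exonic loops were 31.8% and 1.95%, and for intronic loops 62.5% and 0.170%.

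Of the members in a library, 14.7% to 31.8% were found in no other library. The share was 9.42 ± 1.28% for exonic loops (SD over 12 libraries) and 31.1 ± 4.85% for intronic loops. Members stood between these classes in 12 of 12 libraries (exact sign-flip permutation test, two-sided, adjusted p = 0.000651 for each). Mean reads per member in a library were 2.00 ± 0.101, against 2.41 ± 0.332 for exonic loops, which were higher in 11 of 12 libraries, and 1.77 ± 0.112 for intronic loops, which were lower in 11 of 12 (same test, adjusted p = 0.000977 for each). The exonic mean counts a loop of CYP24A1, described below, which took up to 24.6% of a library's reads. It was not computed without that loop, so the comparison with exonic loops may rest on it. A library held 178 to 262 members. In LN229 normoxia 490 members were found in at least 1 of the 3 libraries and 36 (7.35%) in all 3. In LN229 hypoxia these numbers were 508 and 34, in normoxic T98G 455 and 53, and in hypoxic T98G 428 and 40. Exonic loops were found in all 3 libraries of a group for 13.3% to 14.2% of those present. Of the 1077 members, 113 were found in all 4 groups, 383 in both lines and 615 in 1 group.

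The members came from 827 host genes, and 677 hosts had 1 member. A further 27 members had no host or a placeholder. Of the 827 hosts, 463 (56.0%) also gave exonic loops with a read, and 364 did not. Among the 463, exonic reads outnumbered member reads in 355, member reads outnumbered exonic reads in 78, and 30 had equal numbers. By GENCODE gene type, 94.5% of members had a protein-coding host, against 99.2% of exonic loops, and 27 members had a lincRNA host, against 8 exonic loops.

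MALAT1 had the most members, 12, with spans of 369 to 3742 nt and no exonic loop. Its members together held 16, 17 and 4 reads in normoxic LN229, 8, 6 and 5 in hypoxic LN229, 3, 1 and 9 in normoxic T98G, and 2, 0 and 2 in hypoxic T98G. LN229 normoxia replicates 1 and 2 were highest, and within each line the groups overlapped. NEAT1, the RNA scaffold of paraspeckles, had 5 members with 22 reads and no exonic loop. MED13L had 5 members with 196 reads beside 1 exonic loop with 12. LYPLAL1, a lysophospholipase-like gene, had 5 members with 116 reads and no exonic loop, and ZNF124, a KRAB zinc finger gene, had 4 with 258 reads and none. HLA-C had 5 members with 40 reads and no exonic loop. NRIP1, a nuclear receptor corepressor gene, had 5 members with 20 reads beside an exonic loop of 106 reads.

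The hypoxia response list of 39 genes gave 6 members with 37 reads, 0.557% of members, and 55 exonic loops, 0.707% of that class. The loop of EGLN3, a prolyl hydroxylase that marks HIF-alpha for degradation, made up 20 of these reads. It had 0, 0 and 4 reads in normoxic LN229, 4, 3 and 0 in hypoxic LN229, 1, 0 and 0 in normoxic T98G, and 1, 1 and 6 in hypoxic T98G. In T98G the groups touched at 1 read, and in LN229 they overlapped. EGLN1, another prolyl hydroxylase of HIF-alpha, gave loops of 3310 and 9773 nt with 9 and 3 reads, and HIF1A, the alpha subunit itself, gave 1 loop with 2 reads, both in LN229 hypoxia replicate 2. None of the 6 reached the count needed for a test.

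The 20 members with chromatin regulator hosts held 66 reads (1.28% of member reads, against 2.79% of exonic reads), led by CHD9, a chromodomain helicase, with 16 reads in 11 libraries, and ASXL1, a polycomb-associated gene, with 11 reads in 7. Extracellular matrix and adhesion hosts gave 4 members with 11 reads, of which THBS1, a matrix glycoprotein, had 5. Hosts with abundant linear RNA gave 6 members with 21 reads, among them TPM4, a tropomyosin, with 5, RPL14, a ribosomal protein, with 5, and S100A6, a calcium-binding protein, with 4 reads in LN229 normoxia replicate 3 alone. Long non-coding and small RNA hosts gave 42 members (3.90%) with 182 reads, while 0.411% of exonic loops had such hosts. Paralogous families gave 11 members with 91 reads, of which the HLA-DRB1 loop had 41.

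At 3 positions a member lay exactly opposite an exonic loop on the other strand. The table assigns the loop at 52773708 to 52788209 on the plus strand of chromosome 20 to a host named G050945, with 23 reads, and an exonic loop of CYP24A1, the vitamin D 24-hydroxylase gene, to the minus strand of the same coordinates, with 8126 reads. The plus strand held 0, 0 and 3 reads in normoxic LN229, 3, 2 and 0 in hypoxic LN229, 0, 0 and 1 in normoxic T98G, and 4, 3 and 7 in hypoxic T98G. The minus strand held 2, 2 and 1870 reads, 1494, 387 and 1, 0, 1 and 675, and 1327, 998 and 1369 in the same order. The plus-strand reads came only from libraries with 387 or more minus-strand reads. How the circRNA caller treated strand is not stated in the labels, so reads of the 2 strands cannot be told apart with certainty. The other 2 such members had 4 and 2 reads.

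Before hypoxia is set against normoxia, the libraries need to be described. They held 4298 to 7608 junction reads each, so 1 read was worth 146 to 203 CPM (reads scaled to library size, with TMM factors). LN229 normoxia replicate 3 correlated with replicates 1 and 2 of its group at r = 0.106 and 0.112 (log2 CPM over the tested circRNAs other than that of CYP24A1, which share library and depth), but with the T98G hypoxia libraries at r = 0.661 to 0.722. Replicates 1 and 2 correlated with each other at r = 0.767. T98G normoxia replicate 3 correlated with the other libraries of its group at r = 0.474 and 0.536 and with T98G hypoxia at r = 0.503 to 0.543. The CYP24A1 circRNA took 24.6% and 11.2% of the reads of these replicates, at most 0.0419% of those of the other normoxia libraries, and 17.98% to 21.3% of those of T98G hypoxia. In LN229 hypoxia it took 22.5%, 5.61% and 0.0177%. Replicate 3 of LN229 hypoxia correlated with replicates 1 and 2 of its group at r = 0.400 and 0.760. With LN229 normoxia replicates 1 and 2 it correlated at r = 0.480 and 0.438, and with T98G hypoxia at r = 0.3105 to 0.350. Unlike normoxia replicate 3, hypoxia libraries were left out only 1 at a time. Where leaving out normoxia replicate 3 changes a call or a value below, both are given; that setting was chosen after its values were seen.

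Sense overlapping loops took a smaller share of the junction reads in hypoxia than in normoxia. In LN229 normoxia the share was 8.23%, 8.76% and 6.34% of a library's reads, and in hypoxic LN229 6.15%, 7.22% and 7.22%. In T98G normoxia it was 8.56%, 8.72% and 7.34%, and in hypoxic T98G 6.33%, 6.45% and 6.44%. The 95% Wilson interval of a single share was 5.59% to 6.75% for LN229 hypoxia replicate 1, the lowest library, and 7.99% to 9.59% for LN229 normoxia replicate 2, the highest, and covers counting error only. In T98G the groups did not overlap, and in LN229 they overlapped through normoxia replicate 3.

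Over both lines the share was 6.63 ± 0.467% in 6 hypoxia libraries and 7.99 ± 0.967% in 6 normoxia libraries (SD), a difference of -1.36 percentage points (exact permutation test within line, two-sided, p = 0.02). Within T98G the difference was -1.80 points (exact permutation test, p = 0.1, the smallest that 3 against 3 libraries allow) and within LN229 -0.91 points (p = 0.3, same exact test). The LN229 value rested on single libraries: it was -1.63 points without normoxia replicate 3 (exact permutation p = 0.1), -0.42 without normoxia replicate 2 (exact p = 0.7) and -0.55 without hypoxia replicate 1 (exact p = 0.6). Leaving out LN229 normoxia replicate 1, LN229 normoxia replicate 2 or LN229 hypoxia replicate 1 raised the p of both lines to 0.075, 0.08 and 0.075 in the same exact permutation test. Between the lines the share differed by -0.01 points (T98G minus LN229; exact permutation test, p = 0.99). The 10 members with at least 10 reads in normoxia and none in hypoxia, described below, enter the share. Without them it was 7.18 ± 0.496% in normoxia and 6.63 ± 0.467% in hypoxia (SD), a difference of -0.54 points. The 10 were chosen for this pattern, so the value is a description. The mean share of intronic loops also fell, from 3.34% to 3.02% in LN229 and 2.97% to 2.47% in T98G. That of exonic loops rose, from 87.6% to 88.3% and 87.9% to 89.1%.

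The CYP24A1 circRNA is counted in the denominator of this share and differed between the libraries as given above. Without it in the denominator, the share was 8.23%, 8.76% and 8.40% in normoxic LN229, 7.93%, 7.65% and 7.22% in hypoxic LN229, 8.56%, 8.73% and 8.26% in normoxic T98G, and 7.85%, 7.86% and 8.19% in hypoxic T98G. This denominator was chosen after the data were seen. The groups of each line did not overlap. The difference over both lines was then -0.71 points (exact permutation test within line, p = 0.005, the smallest these libraries allow), from 8.49 ± 0.228% to 7.79 ± 0.326% (SD, n = 6 libraries each), and p stayed at 0.005 to 0.01 when any library was left out. The 10 members with at least 10 reads in normoxia and none in hypoxia also enter this share. They held 11.7% to 14.2% of the members' reads in normoxia replicates 1 and 2 of both lines. The share was not computed without both these loops and the CYP24A1 circRNA, so the difference may rest on the 10 loops and not on the class.

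**Figure D3:**
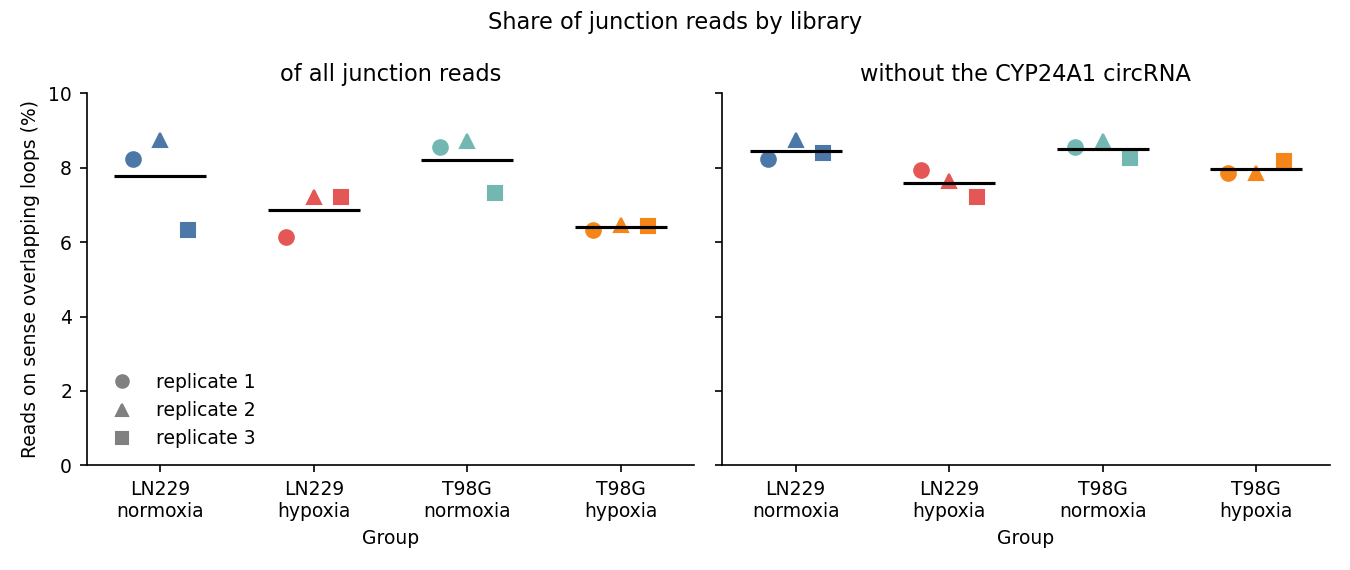
Share of a library's junction reads on sense overlapping loops (y axis, %) in the 4 groups (x axis), of all junction reads (left) and without the CYP24A1 circRNA (right); markers give the replicates and bars the group means. On the left, normoxia replicate 3 of each line (6.34% and 7.34%) lies under the other normoxia libraries. On the right, all normoxia libraries lie above all hypoxia libraries of their line. Both panels count the 10 members with at least 10 reads in normoxia and none in hypoxia.

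Split by source, the share of listed members was 4.51 ± 0.265% in normoxia and 4.17 ± 0.293% in hypoxia (SD, n = 6 libraries each), a difference of -0.34 points (exact permutation test within line, p = 0.08). Among reads of circBase loops alone, the share on members differed by -0.50 points (p = 0.035, same exact test). That of unlisted members was 3.48 ± 0.730% and 2.46 ± 0.404%, a difference of -1.01 points (p = 0.035, same exact test). The split was chosen after the data were seen, and the unlisted p was 0.05 to 0.075 in the same exact test without LN229 normoxia replicate 1 or 2, LN229 hypoxia replicate 1 or 2, or T98G hypoxia replicate 3. At an equal depth of 4000 reads drawn from each library, 163 ± 16.2 members would be found in hypoxia and 182 ± 13.6 in normoxia (SD, n = 6 libraries each), a difference of -18.5 (exact permutation test within line, p = 0.065). Without LN229 normoxia replicate 3 the difference was -22.5 (exact permutation p = 0.02), and without LN229 hypoxia replicate 2 it was -21.97 (exact permutation p = 0.03). With all libraries, T98G went from 187 ± 12.6 members in normoxia to 152 ± 3.24 in hypoxia (SD, n = 3 each). LN229 gave 176 ± 14.8 and 175 ± 15.6. At this depth exonic loops also went from 1800 to 1612 in T98G, and intronic loops from 76.1 to 68.9. In LN229 these were 1739 and 1772, and 88.0 and 81.7.

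Enough reads for a test of single loops, at least 5 in at least 3 libraries, were held by 16 members of 14 hosts, of 244 circRNAs tested. The loops of CBFB, HLA-DRB1, EZR and ARHGAP35 reached 5 reads in normoxia libraries alone and that of FYB in hypoxia libraries alone. They passed this filter through the oxygen level where they were high. Their counts, calls and adjusted p below are therefore a description and not a test of a change. Without normoxia replicate 3 of both lines, the loops of AKR1E2 and LYPLAL1 (48227 nt) also reached 5 reads in hypoxia libraries alone. Their calls in that setting are a description too. The 4 members with the most reads did not pass the test in any comparison. The MED13L loop of 7173 nt had 9, 8 and 17 reads in normoxic LN229, 14, 7 and 10 in hypoxic LN229, 6, 10 and 22 in normoxic T98G, and 17, 13 and 19 in hypoxic T98G. The groups overlapped in each line, and the log2 fold change of hypoxia over normoxia was 0.14 (SE 0.33) on average over both lines. In T98G its level was 2139 ± 1154 CPM in normoxia and 2915 ± 394 CPM in hypoxia (SD, n = 3 libraries each). The ZNF609 loop had 10, 8 and 10 reads, 12, 11 and 8, 4, 2 and 20, and 10, 12 and 6 in the same order, with the lowest and the highest library both in normoxic T98G (average log2 fold change 0.16, SE 0.40).

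ZNF124 gave 2 tested loops with a common upstream end. The loop of 3408 nt, at 247319708 to 247323115 on the minus strand of chromosome 1, had 17, 11 and 11 reads in normoxic LN229, 7, 14 and 16 in hypoxic LN229, 10, 11 and 6 in normoxic T98G, and 8, 6 and 5 in hypoxic T98G. That of 4248 nt had 10, 10 and 11, 9, 3 and 11, 3, 8 and 10, and 8, 9 and 12 reads in the same order. Their average log2 fold changes were -0.31 (SE 0.34) and 0.03 (SE 0.38), and the groups of each line overlapped for both. With the MED13L, ZNF609 and ZNF124 loops, 9 members were found in all 12 libraries. The other 5 belong to MPP6, LYPLAL1 (48227 nt), NIPBL, the cohesin loader, MORC3, a nuclear ATPase, and WHAMMP1, a pseudogene of the actin nucleation promoter WHAMM. The MPP6 loop had 6, 5 and 8 reads in normoxia against 9, 3 and 1 in hypoxia in LN229, and 2, 4 and 5 against 9, 6 and 3 in T98G. The MORC3 loop had 6, 4 and 3 against 2, 3 and 4, and 9, 3 and 2 against 4, 2 and 2, so both overlapped between the groups of each line. The WHAMMP1 loop is the only unlisted one of the 9, and since WHAMM and its pseudogenes are alike in sequence, its 40 reads are uncertain.

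Averaged over both lines, the test called 4 of the 16 members lower in hypoxia and none higher (edgeR quasi-likelihood test with Benjamini-Hochberg adjustment over all 244 circRNAs, threshold 0.05), where 4.1% of all tested circRNAs were called, all of them lower. They came from CBFB, HLA-DRB1, EZR and ARHGAP35, which passed the filter through normoxia libraries alone, so 4 of 16 is a description. The median log2 fold change was 0.05 over the 16 members and 0.04 over all 244. The count of called members was 1 without LN229 normoxia replicate 1 or T98G normoxia replicate 1, 7 without LN229 normoxia replicate 3, and 2 without LN229 normoxia replicate 2, LN229 hypoxia replicate 2 or 3, T98G normoxia replicate 2 or any T98G hypoxia library. For these settings the share of all circRNAs called was not recorded, so the counts cannot be read as particular to the members.

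The loop of CBFB, the RUNX partner subunit of core-binding factor, is unlisted and lies on the plus strand of chromosome 16 at 67132613 to 67159945. Normoxic LN229 gave it 15, 10 and 0 reads, normoxic T98G 11, 15 and 3, and all 6 hypoxia libraries 0. Its pooled level was lower in hypoxia by a factor of at least 8.85 in LN229 and at least 11.7 in T98G, with the hypoxia group set to a floor of 3 counts in all (adjusted p = 0.00577 for the average, edgeR). Here and below, such a factor takes the pooled count of the other group as it stands. Neither the counting error of that count nor the spread between its libraries enters. CBFB also gave 3 exonic loops, with 4 reads in normoxia and 9 in hypoxia, and EZR gave 1, with 3 reads in normoxia and 2 in hypoxia.

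The unlisted HLA-DRB1 loop (minus strand of chromosome 6, 32487147 to 32548633) had 10, 7 and 0 reads in normoxic LN229, 14, 7 and 3 in normoxic T98G, and 0 in all hypoxia libraries. On the same floor, hypoxia was lower by a factor of at least 6.02 in LN229 and 9.70 in T98G (adjusted p = 0.00969, edgeR). The call was lost without LN229 normoxia replicate 1 (adjusted p = 0.0553, edgeR) or T98G normoxia replicate 1 (adjusted p = 0.0977, edgeR). The unlisted loop of EZR, which encodes ezrin, a linker of the membrane to actin (minus strand of chromosome 6, 159186767 to 159204698), had 6, 3 and 0 reads and 10, 5 and 3 reads in normoxia of LN229 and T98G, and 0 in hypoxia. It was at least 3.19-fold and 7.27-fold lower (adjusted p = 0.0444, edgeR). In LN229 all 3 loops overlapped between the groups through replicate 3 of normoxia, which had 0 reads like the hypoxia libraries, and in T98G none overlapped.

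The loop of ARHGAP35 is in circBase and lies on the plus strand of chromosome 19 at 47421745 to 47440665. It had 6, 8 and 5 reads in normoxic LN229 and 2, 0 and 0 in hypoxic LN229, which did not overlap, and 14, 7 and 3 in normoxic T98G and 3, 3 and 0 in hypoxic T98G, which touched at 3 reads. The average log2 fold change was -2.50 (SE 0.68; adjusted p = 0.0444, edgeR). A shorter ARHGAP35 loop of 3869 nt with the same start had 20 reads spread over 10 libraries and did not reach the filter. The ARHGAP35 call was lost under 11 alternatives (adjusted p 0.0508 to 0.243, edgeR), among them leaving out any T98G hypoxia library, and that of EZR under 10 of the 17 that could be run for it (adjusted p 0.0508 to 0.176, edgeR), the highest with a replicate block. Without LN229 normoxia replicate 1 or T98G normoxia replicate 1 or 2 the EZR loop did not reach the filter. The CBFB call was kept under all 20 alternatives.

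**Figure D4:**
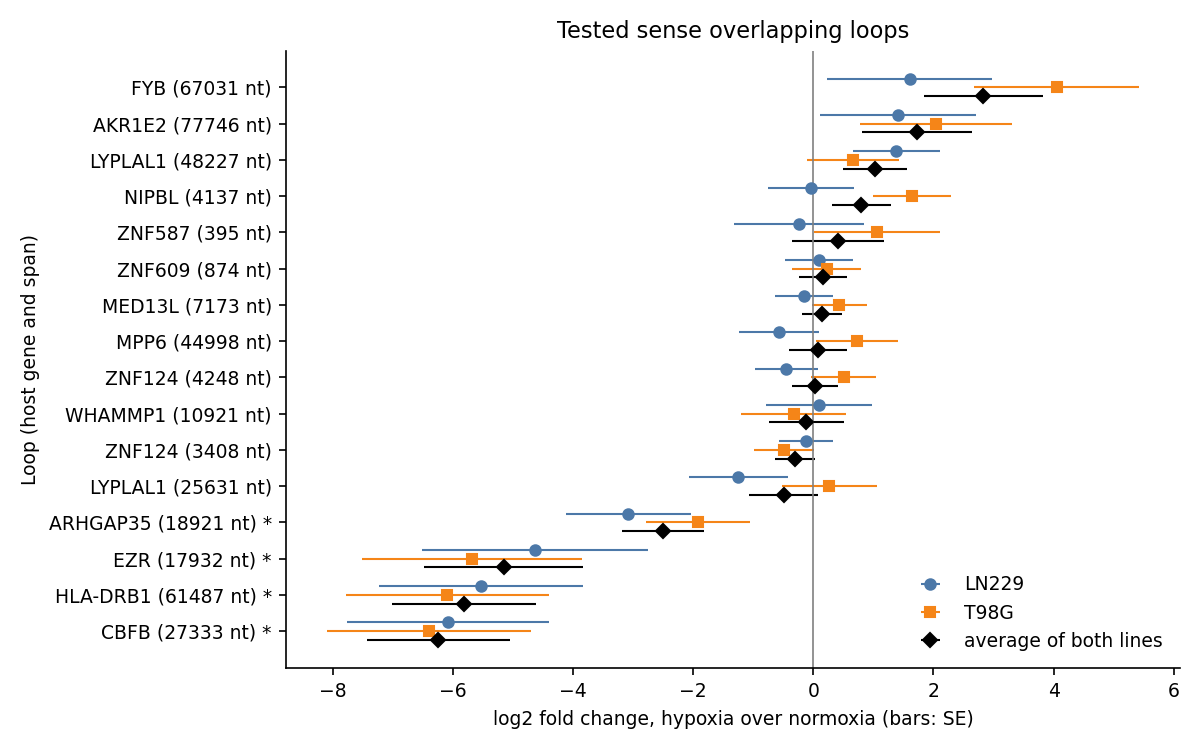
Fitted log2 fold change of hypoxia over normoxia (x axis, with SE) for the 16 tested sense overlapping loops (y axis), for each cell line and as their average; an asterisk marks an adjusted p under 0.05 for the average. The loops of CBFB, HLA-DRB1, EZR and ARHGAP35 lie between -6.24 and -2.50 on average and the other 12 between -0.49 and 2.83; the values of the 3 loops at 0 in hypoxia depend on the prior count.

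Within LN229 no member passed the test, and 0% of all circRNAs did. At an unadjusted p under 0.05 there were 4 members, all lower, against 8.2% of all tested. Only the ARHGAP35 loop had groups that did not overlap, against 9.84% of all tested circRNAs. Without normoxia replicate 3 of both lines 3 members passed in LN229, all lower (CBFB, HLA-DRB1 and ARHGAP35), and without that of LN229 alone 2 (CBFB and HLA-DRB1). Within T98G no member passed, against 0.41% of all tested. There 6 members had an unadjusted p under 0.05, 4 lower and 2 higher, against 20.9% of all tested, and 5 had groups that did not overlap, against 36.9%. Without normoxia replicate 3 of both lines 6 members passed in T98G, of which FYB and AKR1E2 were higher and CBFB, HLA-DRB1, EZR and ARHGAP35 lower. Without that of LN229 alone 4 passed (CBFB, HLA-DRB1 and EZR lower, FYB higher), and without that of T98G alone 2 (CBFB and HLA-DRB1). The share of all tested circRNAs called was not recorded for the settings with libraries left out. Those counts therefore cannot be read as particular to the members. DESeq2 on all 12 libraries called no member in either line.

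The 2 that were higher in hypoxic T98G at the unadjusted level were loops of FYB and NIPBL. The unlisted loop of FYB, an adaptor protein of immune cells, had 0, 0 and 1 reads in normoxic T98G and 8, 11 and 2 in hypoxic T98G, and 0, 0 and 2 against 5, 2 and 0 in LN229. All its reads came from libraries with 387 or more CYP24A1 reads, normoxia replicate 3 of both lines among them. Its log2 fold change was 4.05 (SE 1.37) in T98G (adjusted p = 0.123, edgeR) and 2.83 (SE 0.99) on average (adjusted p = 0.136, edgeR). Without LN229 normoxia replicate 3 these were 4.11 (adjusted p = 0.0255, edgeR) and 4.16 (adjusted p = 0.0150, edgeR), and without normoxia replicate 3 of both lines 5.98 (adjusted p = 0.0193, edgeR) and 5.09 (adjusted p = 0.00674, edgeR). With a filter of 2 reads in 3 libraries FYB was also called (adjusted p = 0.0316 in T98G and 0.0297 on average, edgeR). The NIPBL loop had 1, 3 and 4 reads in normoxic T98G and 9, 7 and 9 in hypoxic T98G, with no overlap, and 1, 3 and 5 against 4, 3 and 2 in LN229. In T98G this was 464 ± 251 CPM in normoxia and 1489 ± 102 CPM in hypoxia (SD, n = 3 libraries each). Its log2 fold change was 1.64 (SE 0.65) in T98G (adjusted p = 0.145, edgeR). The difference of the responses between the lines was 1.68 (SE 0.98; adjusted p = 0.666, edgeR) for NIPBL, and no member passed for that difference, against 0% of all tested. No member had an unadjusted p under 0.05 there, against 7.79%. Between the lines in normoxia no member passed either, against 0% of all tested, none had an unadjusted p under 0.05, against 1.64%, and the MPP6 loop alone had groups that did not overlap, against 9.43%.

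The loop of AKR1E2, an aldo-keto reductase gene, had 0, 0 and 5 reads in normoxic LN229, 12, 2 and 0 in hypoxic LN229, 0, 0 and 5 in normoxic T98G, and 1, 8 and 11 in hypoxic T98G. All its reads came from libraries with 387 or more CYP24A1 reads, normoxia replicate 3 of both lines among them. Its average log2 fold change was 1.73 (SE 0.91; adjusted p = 0.297, edgeR). It was 3.63 without LN229 normoxia replicate 3 (adjusted p = 0.0209, edgeR) and 5.54 without normoxia replicate 3 of both lines (adjusted p = 0.00285, edgeR). In the latter setting the loop passed the filter through hypoxia libraries alone, so that value is a description. Its span of 77746 nt was longer than the host gene. LYPLAL1 gave tested loops of 48227 and 25631 nt with a common start at 219366424 on the plus strand of chromosome 1. The longer had 1, 1 and 7 reads against 10, 4 and 10 in LN229, and 1, 3 and 5 against 4, 3 and 7 in T98G. The shorter had 6, 5 and 3 against 3, 3 and 0, and 4, 4 and 2 against 3, 3 and 6. Their average log2 fold changes were 1.02 (SE 0.53) and -0.49 (SE 0.57), with overlapping groups in each line. That of the longer was 1.75 without LN229 normoxia replicate 3 (adjusted p = 0.0306, edgeR) and 2.01 without normoxia replicate 3 of both lines (adjusted p = 0.0179, edgeR). The second value is a description for the same reason as that of AKR1E2.

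Some loops had reads at 1 oxygen level and none at the other. Of the 94 members with at least 10 reads, 10 (10.6%) had at least 10 reads in normoxia and none in hypoxia, against 14 of 1199 exonic loops (1.17%) and 1 of 28 intronic loops. The reverse was found for 2 members and 3 exonic loops. These counts were made after the reads were seen and carry no test. Besides the loops of CBFB, HLA-DRB1 and EZR, the 10 were 2 loops of DSN1, 2 of FAM168A, and 1 each of DAG1 (dystroglycan), VAC14 (a scaffold of the PIKfyve complex) and FGF12 (a fibroblast growth factor homologous factor). Of the 10, only the FGF12 loop is in circBase. Exonic loops of FGF12 and FAM168A had reads in normoxia alone as well, 4 and 5, while HLA-DRB1, DSN1, DAG1 and VAC14 gave no exonic loop.

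All 10 had 0 reads in LN229 normoxia replicate 3 and 1 to 3 in T98G normoxia replicate 3. Together they held 63, 49 and 0 reads in normoxic LN229 and 63, 50 and 21 in normoxic T98G, which was 13.5%, 11.7% and 0% and 14.2%, 13.3% and 4.76% of the members' reads in these libraries. What sets normoxia replicate 3 apart in both lines was not tested.

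The DSN1 loops, on the minus strand of chromosome 20 at 35402065 to 35423002 and 35399276 to 35423002, share their upstream end. They had 11, 4 and 0 and 3, 4 and 0 reads in normoxic LN229, and 4, 4 and 2 and 9, 6 and 1 in normoxic T98G. The FAM168A loops, of 24156 and 24134 nt, start 22 bases apart in the files and share their other end, so each pair has an end in common and is not independent. The DAG1 loop had 6, 10 and 0 reads in normoxic LN229 and 2, 2 and 1 in normoxic T98G. The VAC14 loop had 4, 6 and 0 and 1, 3 and 1, and the FGF12 loop 2, 3 and 0 and 4, 3 and 3.

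The loops with the reverse pattern came from RANBP17, an importin-family gene, and ETNK1, an ethanolamine kinase gene. The RANBP17 loop had 4, 0 and 0 reads in hypoxic LN229 and 2, 5 and 4 in hypoxic T98G, at least 3.02-fold higher than in normoxic T98G at its floor of 3 counts. Exonic loops of RANBP17 held 4 reads in normoxia and 18 in hypoxia. The ETNK1 loop had 0, 7 and 4 reads in hypoxic LN229 and none in T98G, while exonic loops of ETNK1 held 29 reads in normoxia and 18 in hypoxia.

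**Figure D5:**
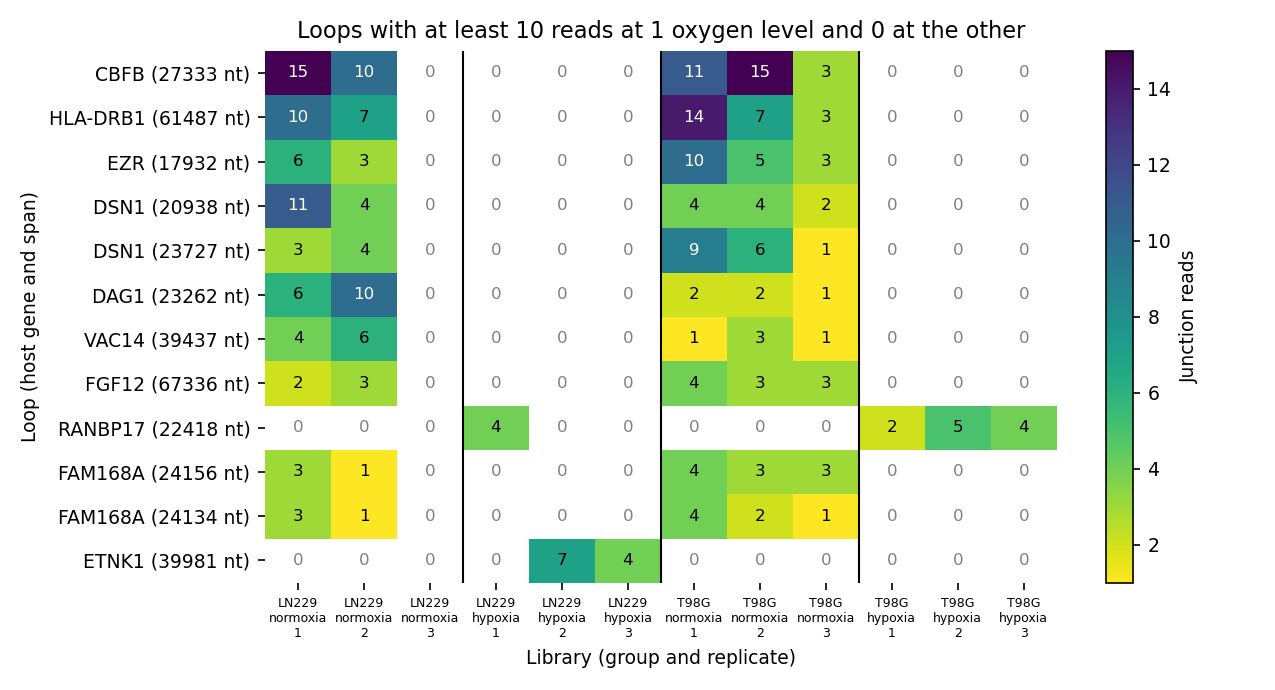
Junction reads (numbers and colour) of the 12 sense overlapping loops with at least 10 reads at 1 oxygen level and 0 at the other (y axis) in each of the 12 libraries (x axis). The 10 loops with reads in normoxia have 0 in LN229 normoxia replicate 3 and 1 to 3 in T98G normoxia replicate 3; those of RANBP17 and ETNK1 have reads in hypoxia alone.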

How the data were processed

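The deposited table, whose columns were matched to the 12 libraries by title, gives whole-number counts of junction reads per circRNA and library, made by the authors. It also holds deposited log2 values, scaled by the authors in a way not stated, which no result uses. Per the submitters' processing notes, CASAVA 1.8, BWA and hg19 were used; the circRNA caller, its filters and its strand setting are not stated there. Coordinates are those of the table, with a span of end minus start plus 1.

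Counts were tested in edgeR 4.0.16 (R 4.3.3, limma 3.58.1; DESeq2 1.42.0 as alternative) with TMM on total junction reads and 1 fit of 4 group means over 12 libraries. The filter for testing was 5 or more reads in 3 or more libraries. Shares and numbers per library were compared by exact permutation, two-sided, and the class tests adjusted by Benjamini-Hochberg. Intervals cover counting error only, and floors only that of the group without reads. Log2 fold changes carry SE, other means SD; floors are 3 counts over a group. Steps were tested on simulated data. The simulated counts for edgeR had a smaller spread than that fitted here (common dispersion 0.261), so they do not give its error rate in these libraries.

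Named loops were those with the most reads, in all 12 libraries, past the threshold or with the smallest p, with extreme spans, of hosts with the most loops, or leading a host list; loops at 1 oxygen level, printed sequences and loops longer than their host were chosen after their values were seen. Members and lists were chosen with earlier results of these data known. Alternatives were other scaling, filters, denominators, DESeq2, a replicate block and left-out libraries.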

Additional observations from a re-analysis of the deposited data

Results flagged for a closer look

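Sense overlapping loops on the mitochondrial chromosome are outside the comparisons above and still carried reads. There were 25 of them with 291 reads over the 12 libraries, 17, 23 and 46 in normoxic LN229, 27, 20 and 14 in hypoxic LN229, 15, 9 and 28 in normoxic T98G, and 36, 30 and 26 in hypoxic T98G. Reads were present in the normoxia libraries as in the hypoxia ones.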

How the results depend on the processing

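The class comparisons on span, source, recurrence and reads per loop kept direction and side of the threshold under every alternative run. None of these alternatives left the CYP24A1 circRNA out of the exonic reads per loop. The share over both lines (-1.36 points) ranged from -1.71 to -1.11 when 1 library was left out (exact permutation p 0.005 to 0.08), was -0.50 (exact p = 0.035) over circBase loops alone, and with same-numbered libraries paired as a replicate block it was -1.36 with an exact sign-flip p of 0.0625. Whether replicate numbers pair the libraries is not stated in the labels. Deviations of same-numbered libraries from their group means correlated at -0.459, 0.0607 and -0.545 in LN229 and at -0.0144, -0.0592 and -0.0594 in T98G. With 3 libraries a group, these values cannot decide it. The share between the lines (-0.01 points) reversed to 0.209 without the CYP24A1 circRNA in the denominator and ranged from -0.372 to 0.233 over left-out libraries, reversed at 0.101, 0.233, 0.0778, 0.0760, 0.205 and 0.00672. The number of members at equal depth (-18.5) passed the threshold at 2000 reads (-14.3), at 3000 reads without the CYP24A1 circRNA (-8.66) and without normoxia replicate 3 of both lines (-25.4), and ranged from -22.5 to -14.3 over left-out libraries (exact permutation p 0.02 to 0.16), passing without LN229 normoxia replicate 3 or LN229 hypoxia replicate 2. The cause of these shifts was not tested.

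Counts of called members on average (4) were 2 with RLE size factors and without chrM loops, 7 with no filter, 12 (10 lower, 2 higher) of 93 with at least 2 reads in 3 libraries, 7 (4 lower, 3 higher) without normoxia replicate 3 of both lines, 3 under the replicate block, and 1 to 7 over left-out libraries, lowest without LN229 or T98G normoxia replicate 1. In LN229 (0) they were 2 with no filter, 4 with the lower filter, 1 under the replicate block, 3 without normoxia replicate 3 of both lines, and 0 to 2 over left-out libraries. In T98G (0) they were 3, 5, 1, 6 and 0 to 4 in the same order. The share of all tested circRNAs called was not recorded for these settings, so the counts cannot be read as particular to the members. Of the 12 called on average with the lower filter, all but the ARHGAP35 and FYB loops had reads at 1 oxygen level alone. Those loops passed that filter through that level, so the count is a description. Normoxia replicate 3 was left out after its values were seen. The share of unlisted members missed the threshold under the replicate block (exact sign-flip p = 0.0938) and without any of 5 libraries. Depth limits single loops: most members have 2 reads or fewer.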
